A study of Mus musculus with 64 samples.

Results

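Sites that ranked among the strongest SOX2 peaks when SOX2 was low, and in at most 1 library when it was high, were taken from 12 SOX2 ChIP-seq peak lists. The 20000 peaks with the highest deposited fold (the enrichment of a peak over its local background) were kept from each list, and peaks that overlapped by 1 bp or more were joined, which gave 125248 sites. A site was called a low-SOX2 site where at least 5 of the 6 lists of CEpiLCs and SOX2-OFF cells and at most 1 of the 6 lists of naive ESCs and SOX2-ON cells had a peak, and 865 of the 125248 sites met this rule. The sites were thus chosen by the SOX2 peak values themselves, which are given as a description, without a test. The same rule turned around gave 1371 high-SOX2 sites, and 815 sites had a peak in all 12 lists.

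The series holds 60 peak lists, 3 for each of 5 targets (SOX2, β-catenin, LEF1, TCF7L1 and TCF7L2) in each of 4 states of mouse HM1 cells, an embryonic stem cell line whose HM1 TetON derivative served as wild type and as the parent of the other line per the study's methods. Naive ESCs were wild type and grown in 2i medium, which holds the WNT agonist CHIR99021 and a MEK inhibitor. CEpiLCs, caudal epiblast-like cells, were wild type and were differentiated for 72 h with FGF and the porcupine inhibitor LGK974, with CHIR99021 added for the last day. SOX2-ON and SOX2-OFF cells came from a Sox2-/- line picked as clones, in which both states carry a doxycycline-inducible SOX2 transgene at Hprt, went through the same differentiation, and had doxycycline (1 µg/ml while present) kept or withdrawn. Naive ESCs and CEpiLCs thus differed in medium as well as in SOX2, whereas SOX2-ON and SOX2-OFF cells differed in doxycycline. The peak lists hold no measure of the amount of SOX2, so the words low and high follow the labels of the states and the study's description of them.

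SOX2 is a transcription factor with an HMG box that binds short AT-rich words, in pluripotent cells often beside the POU factor OCT4. WNT signalling stabilises β-catenin, which does not bind DNA itself and reaches it through the TCF/LEF factors, HMG-box proteins with a related word. LEF1 is mostly an activator, TCF7L1 is best known as a repressor in pluripotent cells, and TCF7L2 can do both. In the caudal epiblast, WNT and FGF signals maintain the cells that will form the trunk and activate genes such as T (Brachyury), Evx1 and the Hox genes.

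The lists differed in length, which is the only measure of depth they give: the SOX2 lists held between 29298 (CEpiLC replicate 1) and 907862 peaks (naive ESC replicate 1), and the lowest fold among the 20000 peaks kept ranged from 4.33 to 9.89 in the same 2 lists. This cutoff was 4.33 to 6.94 in the low-SOX2 lists and 5.89 to 9.89 in the high-SOX2 lists. A peak of the same fold could thus be kept at low and dropped at high SOX2. The part of the cutoffs in the choice of sites was not tested. The lists of the other targets were cut to one length per target, that of its shortest library, by the deposited −log10 p. This left 3423 β-catenin, 4443 LEF1, 1628 TCF7L1 and 4134 TCF7L2 peaks a library, called equal-length lists here. The LEF1 list of naive ESC replicate 1 stood apart, with a peak on 0.206% of the SOX2 sites outside the low-SOX2 class against 0.941% and 2.82% in the other 2 naive LEF1 lists. Replicates were separate experiments, so p-values measure the spread between experiments. The series holds 1 input library per state, so p-values do not measure variation of the input. No low-SOX2 site lay on an exon of Tfap2a, Tfap2c, Tcf7l1 or Tcf7l2.

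The strongest low-SOX2 sites show how varied the class was. Among the 127 sites with a SOX2 peak in 6 of 6 low-SOX2 and 0 of 6 high-SOX2 lists, 3 of the 4 with the highest median fold are printed here, 100 bp to each side of the strongest summit, on the plus strand of GRCm38 (the build called mm10 in the labels), 5′ to 3′ and each under the symbol of the nearest protein-coding start. Capitals mark the words searched below on both strands.
Agpat3 (chr10:78366272-78366472): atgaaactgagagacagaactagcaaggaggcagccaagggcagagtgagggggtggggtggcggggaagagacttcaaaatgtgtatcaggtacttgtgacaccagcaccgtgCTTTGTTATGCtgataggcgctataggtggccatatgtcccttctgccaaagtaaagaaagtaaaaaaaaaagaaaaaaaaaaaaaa
Rfx1 (chr8:84066780-84066980): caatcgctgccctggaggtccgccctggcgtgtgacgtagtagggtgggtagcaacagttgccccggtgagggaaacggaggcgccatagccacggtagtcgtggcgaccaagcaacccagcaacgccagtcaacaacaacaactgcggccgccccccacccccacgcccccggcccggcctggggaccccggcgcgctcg
B3galt2 (chr1:142167827-142168027): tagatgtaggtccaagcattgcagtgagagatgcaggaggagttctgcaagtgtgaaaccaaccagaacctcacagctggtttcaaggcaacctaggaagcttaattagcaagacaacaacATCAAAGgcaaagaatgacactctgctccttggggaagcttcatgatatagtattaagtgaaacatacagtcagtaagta

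The site next to Agpat3, an acyltransferase gene, lay between genes, 13930 bp upstream of its start, and its window held 1 SOX word with the POU-factor word ATGC beside it. Its SOX2 fold was 10, 18.7 and 34.1 in the 3 CEpiLC lists and 21.2, 60.1 and 58.5 in the 3 SOX2-OFF lists. In the full lists, naive ESCs had a peak there of 7.34 and 4.24 fold in replicates 1 and 3, SOX2-ON cells one of 4.27 fold in replicate 3, and the other 3 lists none. Every low-SOX2 value lay above every high-SOX2 value, a comparison of values that the rule used. The site at the promoter of Rfx1, which encodes a winged-helix factor that binds X-box elements, held none of the words searched, and its GC content was 69.7%. There the fold was 6.25, 26.1 and 27.5 in CEpiLCs and 13.9, 56.1 and 29 in SOX2-OFF cells, with CEpiLC replicate 1 the lowest. TCF7L2 had a peak at this promoter in all 12 of its lists, and β-catenin, LEF1 and TCF7L1 in none of their equal-length lists.

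The site between genes whose nearest start was that of B3galt2, 1472737 bp away, held 1 TCF word, and its SOX2 fold was 19, 31.3 and 36.4 in CEpiLCs and 16.2, 18.9 and 24.3 in SOX2-OFF cells. β-catenin had a peak there in 6 of 6 low-SOX2 and 1 of 6 high-SOX2 equal-length lists. The other 4 sites of the 8 with the highest median fold lay in an intron of Tpst2 (median fold 20.2), at the promoters of the homeobox gene Six2 (19.4) and of Foxj1 (18.7), a regulator of motile cilia, and in an intron of Fgfr2 (18.3, nearest start Cpxm2). At the remaining site of the 8, which shared a run of at least 20 bases with another low-SOX2 site, β-catenin had a peak in 6 of 6 low-SOX2 and 5 of 6 high-SOX2 equal-length lists, and LEF1 and TCF7L2 in all 12. Among those 8 sites, 3 were GC-rich promoters (67.2% to 71.1% GC) with no SOX, TCF or octamer word.

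The sites at which the other targets differed most by SOX2 level formed a different set. Over the 48 lists of the other 4 targets, the number of low-SOX2 lists with a peak (of 24) minus the number of high-SOX2 lists was highest at Pkdcc (24) and Stim2 (23), followed by 3 sites at 22, of which Olfr1028 and Zfand6 are printed with them under the same conventions.
Pkdcc (chr17:82494554-82494754): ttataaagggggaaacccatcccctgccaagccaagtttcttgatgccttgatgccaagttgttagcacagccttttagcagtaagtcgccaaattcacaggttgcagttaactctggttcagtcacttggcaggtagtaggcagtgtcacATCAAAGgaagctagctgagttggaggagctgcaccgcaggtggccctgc
Stim2 (chr5:55067936-55068136): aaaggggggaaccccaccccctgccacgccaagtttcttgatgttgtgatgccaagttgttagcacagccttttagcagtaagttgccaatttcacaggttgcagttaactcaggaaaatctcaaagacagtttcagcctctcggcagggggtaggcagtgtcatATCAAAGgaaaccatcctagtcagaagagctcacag
Olfr1028 (chr2:85953386-85953586): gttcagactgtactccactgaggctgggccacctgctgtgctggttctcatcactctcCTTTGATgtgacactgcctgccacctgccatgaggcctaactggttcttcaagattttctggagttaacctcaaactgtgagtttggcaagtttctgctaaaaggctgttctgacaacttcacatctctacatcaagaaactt
Zfand6 (chr7:84754646-84754846): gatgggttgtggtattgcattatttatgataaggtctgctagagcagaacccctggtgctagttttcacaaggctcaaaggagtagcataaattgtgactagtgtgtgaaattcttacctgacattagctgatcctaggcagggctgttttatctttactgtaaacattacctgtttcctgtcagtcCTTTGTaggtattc

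At the site 720638 bp upstream of Pkdcc, a kinase gene, all 24 low-SOX2 lists of the 4 targets had a peak and none of the high-SOX2 lists did. The deposited β-catenin fold was 59.8, 140 and 156 in CEpiLCs and 42.5, 13.2 and 54.9 in SOX2-OFF cells. In the full lists it was 6.41 in naive ESC replicate 1, 6.93 in SOX2-ON replicate 1 and 9.96 in SOX2-ON replicate 3, with no peak in the other 3. The lowest low-SOX2 value, SOX2-OFF replicate 2, was still above the highest high-SOX2 value. This site, like the others ranked here, was picked by its lists of the same 4 targets, so the gap came with the choice. The SOX2 fold at the same site was 9.95, 15.5 and 39 in CEpiLCs and 8.87, 5.3 and 19.4 in SOX2-OFF cells, with no SOX2 peak in any of the 6 full high-SOX2 lists.

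The windows of Pkdcc and of the site nearest to Stim2, on another chromosome, shared a run of 38 identical bases and each held 1 TCF word. At the Stim2 site the β-catenin fold was 58.4, 84.4 and 134 in CEpiLCs and 68.3, 13.6 and 91.1 in SOX2-OFF cells, against 14, 8.89 and 15.5 in naive ESCs and 6.52, 7.49 and 10.6 in SOX2-ON cells. The groups overlapped only at SOX2-OFF replicate 2, which lay below 2 naive ESC values. The site in an annotated untranslated region of Olfr1028, an olfactory receptor gene, had β-catenin folds of 45.3, 74.6 and 73.9 in CEpiLCs and 81.7, 23.3 and 76.2 in SOX2-OFF cells, against a highest value of 20.7 among the full high-SOX2 lists. Of the 8 sites ranked by this difference, 7 shared a run of at least 20 bases with another low-SOX2 site.

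This sharing was widespread. Windows of 199 of the 865 low-SOX2 sites (23%) held a run of 20 bases found in another window of the class on either strand, a count made after the Pkdcc and Stim2 windows had been seen. At high-SOX2 sites the share was 14.8%, at sites with a peak in all 12 lists 17.1%, and at windows 5000 bp away from the low-SOX2 sites 12.5%. Linked through such runs, the sites fell into 16 families, of which the largest had 77 sites on 19 chromosomes and the next 58 sites. In the family of 77, which holds Pkdcc, Stim2 and Olfr1028, a median of 53.7% of the window was soft-masked as repetitive in the RefSeq genome, and 42 windows held a TCF word. In the family of 58, which holds Zfand6, the median masked share was 90% and 32 windows held a TCF word. Sites of a family share sequence and may not be independent. The counts, shares and Wilson intervals given here still count each of them separately, except where families are left out. The mapping settings for reads with several matches are not given in the sources used here, and their part in these peaks was not tested.

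**Figure D1:**
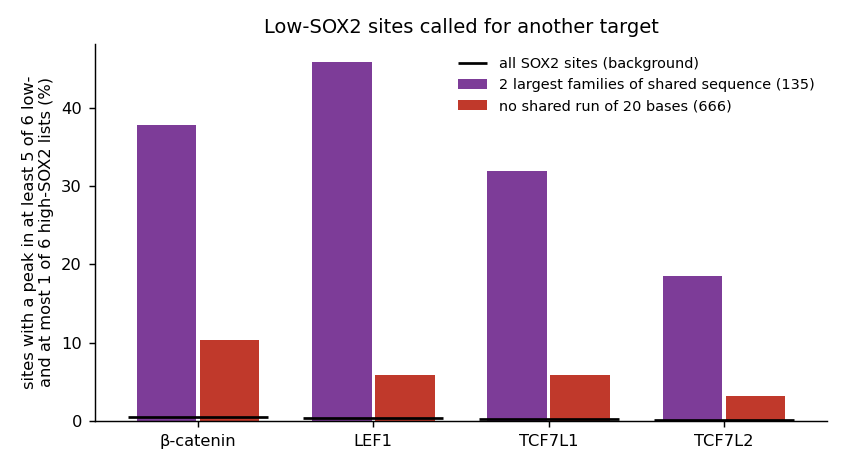
Share of low-SOX2 sites (y axis, %) at which another target had a peak in at least 5 of 6 low-SOX2 and at most 1 of 6 high-SOX2 equal-length lists. Purple bars are the 135 sites of the 2 largest families of shared sequence, red bars the 666 sites with no shared run, and black lines all 125248 SOX2 sites. For β-catenin the bars stand at 37.8% and 10.4% over a background of 0.516%.

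β-catenin was called at 126 low-SOX2 sites (14.6%), called meaning a peak in at least 5 of 6 low-SOX2 and at most 1 of 6 high-SOX2 lists, whereas 0.516% of all SOX2 sites were called. LEF1 was called at 106 (12.3%, background 0.317%), TCF7L1 at 85 (9.83%, background 0.212%) and TCF7L2 at 47 (5.43%, background 0.113%). None of the 1371 high-SOX2 sites was called for any of the 4. Sites in all 12 SOX2 lists were called more often than all SOX2 sites. The share there was 1.84% with β-catenin, 1.84% with LEF1, 1.47% with TCF7L1 and 1.35% with TCF7L2. The median width was 643 bp at low-SOX2 sites, 1162 bp at sites in all 12 lists and 251 bp over all SOX2 sites. A wider site is more easily overlapped by 1 bp, and the classes were not matched for width. Of all SOX2 sites called for β-catenin, 19.5% were low-SOX2 sites, and of those called for TCF7L2, 33.3%. The 2 largest families, 15.6% of the low-SOX2 sites, held 51 of the 126 β-catenin calls and 62 of the 106 LEF1 calls. Outside all families 69 of 666 sites were called for β-catenin (10.4%) and 39 for LEF1 (5.86%). At least 1 of the 4 targets was called at 216 sites (25%, background 0.847%), and all 4 at 5 (0.578%, background 0.00719%). With all deposited peaks the calls numbered 45 with β-catenin (5.2%, background 0.419%), 24 with LEF1 (2.77%, background 0.148%), 18 with TCF7L1 (2.08%, background 0.0918%) and 37 with TCF7L2 (4.28%, background 0.0974%).

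At 425 low-SOX2 sites (49.1%) β-catenin had a peak in none of its 6 low-SOX2 lists, against 95.2% of all SOX2 sites and 36% of the sites in all 12 SOX2 lists. At 332 (38.4%) none of the 4 targets had a peak in any low-SOX2 list, against 91.2% and 26.3%. The 425 sites lay closer to gene starts than the 126 called for β-catenin, with a median distance of 4616 bp against 39466 bp, and 32.5% of them lay at promoters against 3.17%. Their windows held a TCF word in 5.41% against 42.1%, and a SOX word in 32.5% against 33.3%.

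Over all low-SOX2 sites, the share with a β-catenin peak was 39.8%, 38.6% and 40.1% in the 3 CEpiLC lists and 37%, 27.3% and 39.1% in the SOX2-OFF lists. It was 7.17%, 4.97% and 5.9% in naive ESCs and 15.4%, 12.8% and 18.2% in SOX2-ON cells. All 6 low-SOX2 lists lay above all 6 high-SOX2 lists. The mean was 37% ± 4.87 (SD, n = 6) at low and 10.7% ± 5.48 (SD, n = 6) at high SOX2, a difference of 26.2 percentage points (exact two-sided permutation test within cell line, adjusted p = 0.005, the smallest the 400 assignments allow). In single lists the 95% Wilson interval, which covers counting error only, reached no lower than 24.4% in the low-SOX2 lists.

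The 3 TCF/LEF factors moved the same way. LEF1 had a peak at 34.1%, 35.7% and 34.1% of the sites in CEpiLCs and at 20%, 17.2% and 25% in SOX2-OFF cells, against 1.16%, 6.59% and 2.89% in naive ESCs and 6.47%, 7.17% and 6.82% in SOX2-ON cells. The difference was 22.5 percentage points (exact permutation test, adjusted p = 0.005), and 21.9 without naive ESC replicate 1, the list that stood apart. TCF7L1 had a peak at 14.5%, 25.1% and 23.7% in CEpiLCs and at 21.2%, 18.6% and 23.2% in SOX2-OFF cells, against 3.01%, 2.08% and 2.77% in naive ESCs and 1.97%, 4.74% and 8.32% in SOX2-ON cells, a difference of 17.2 points (exact permutation test, adjusted p = 0.005). For TCF7L2 the shares were 23%, 21.3% and 24.6% in CEpiLCs and 13.2%, 16.9% and 16.1% in SOX2-OFF cells, against 5.9%, 7.63% and 4.39% in naive ESCs and 5.43%, 4.39% and 8.44% in SOX2-ON cells, a difference of 13.1 points (exact permutation test, adjusted p = 0.005). For each of the 3 factors the low-SOX2 and high-SOX2 lists did not overlap.

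The length of the lists bore on these shares. With all deposited peaks β-catenin differed by 11.7 points, LEF1 by 9.58, TCF7L1 by 6.82 and TCF7L2 by 19 (exact permutation test, adjusted p = 0.46, 0.46, 0.6 and 0.42), and for TCF7L1 the difference missed the threshold also with at most 20000 peaks a list (12.2 points, exact permutation test, adjusted p = 0.125). Without the 199 sites that share sequence the 4 differences were 20, 15.8, 11.4 and 9.06 points (exact permutation test, adjusted p = 0.005 for each). Without the promoter sites they were 30.9, 26.4, 20.3 and 14.5 points.

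**Figure D2:**
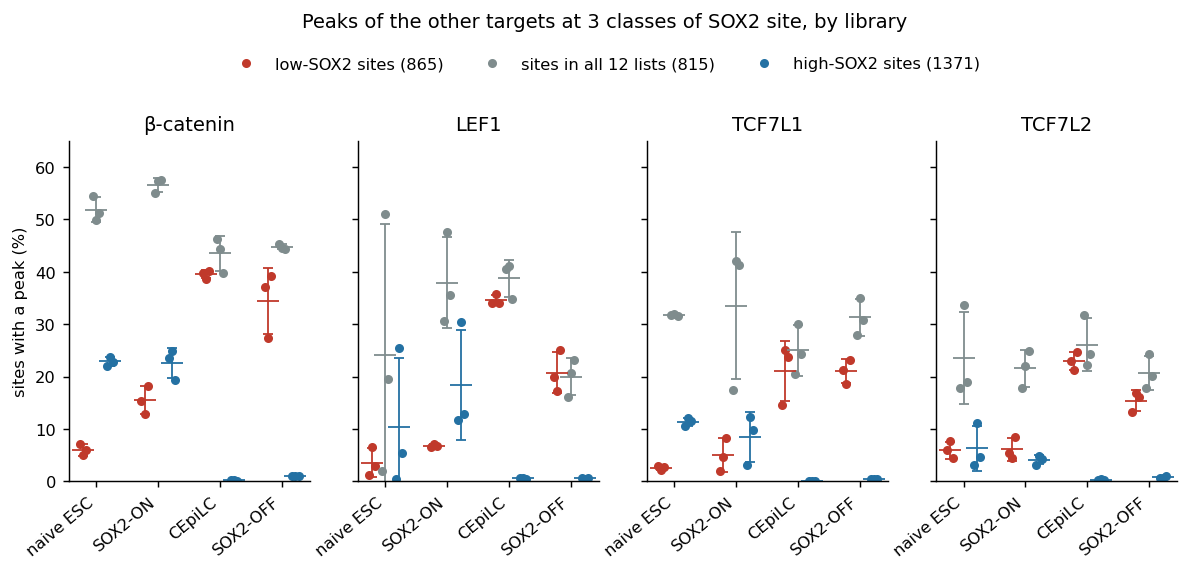
Share of sites with a peak of each other target (y axis, %) in the 3 libraries of each state (x axis). Red points are the 865 low-SOX2 sites, grey points the 815 sites in all 12 SOX2 lists and blue points the 1371 high-SOX2 sites, with the mean and SD beside them. For β-catenin the red points lie between 27.3% and 40.1% in the 2 low-SOX2 states and between 4.97% and 18.2% in the 2 high-SOX2 states, and the blue points fall from 19.3% or more to 1.09% or less.

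The contrast was also larger at low-SOX2 sites than at the rest of the SOX2 sites. Of the other SOX2 sites, β-catenin had a peak at 2.2% to 2.44% in the CEpiLC lists and 2.55% to 2.65% in the naive ESC lists. The log2 odds of a β-catenin peak at low-SOX2 sites minus those at other SOX2 sites were 4.69 ± 0.205 (SD, n = 6) at low and 2.02 ± 0.873 (SD, n = 6) at high SOX2, a difference of 2.67 (exact permutation test, adjusted p = 0.005). The same difference in log2 odds was 2.58 for LEF1, 3.05 for TCF7L1 and 1.69 for TCF7L2 (exact permutation test, adjusted p = 0.005 for each). It stayed past the threshold for the 4 targets in each of 22 alternatives, all deposited peaks included. At high SOX2 the log2 odds were above 0 in every library too, with means of 2.02, 1.94, 1.64 and 2.06.

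At the 1371 high-SOX2 sites β-catenin had a peak at 22.1% to 23.8% in naive ESCs and 19.3% to 24.9% in SOX2-ON cells, and at 0.146% to 1.09% in the 6 low-SOX2 lists. At the 815 sites with a peak in all 12 SOX2 lists β-catenin was found in every state, from 39.8% to 46.3% in CEpiLCs and from 49.8% to 54.5% in naive ESCs. In CEpiLCs the low-SOX2 sites thus held β-catenin at shares of 38.6% to 40.1%, next to the 39.8% to 46.3% of sites where SOX2 was found throughout. These class differences were not tested.

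Whether the change with SOX2 level was of the same size in both cell lines was tested as the difference of the differences. For β-catenin CEpiLCs exceeded naive ESCs by 33.5 points and SOX2-OFF exceeded SOX2-ON cells by 19 points, a difference of 14.5 (exact permutation test of cell line labels, adjusted p = 0.02). The adjusted p was 0.05, which is not under the threshold, without CEpiLC replicate 1 and without CEpiLC replicate 3. For LEF1 the 2 changes were 31.1 and 13.9 points, a difference of 17.2 (exact permutation test, adjusted p = 0.02). For TCF7L2 the difference was 7.71 points (exact permutation test, adjusted p = 0.0667), and it passed without SOX2-ON replicate 2 (8.55 points, exact permutation test, adjusted p = 0.04). For TCF7L1 it was 2.47 points (exact permutation test, adjusted p = 0.55). Within one cell line 3 lists stood against 3, where the exact two-sided permutation test cannot give a p below 0.1. All 8 such low-against-high pairs did not overlap in the equal-length lists (p = 0.1, adjusted p = 0.12 over 12 pairs, exact permutation test). With all deposited peaks the TCF7L1 difference between CEpiLCs and naive ESCs turned to -6.44 points.

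Where both proteins had a peak, the summits lay close together. The median distance from the strongest SOX2 summit to the β-catenin summit was 20.5 bp in CEpiLC replicate 1, 24 bp in replicate 2 and 22 bp in replicate 3, over 334 to 347 sites. In SOX2-OFF cells it was 25, 24.5 and 20.5 bp. The SOX2 summits of single lists lay a median of 7 to 35 bp from the same strongest summit. For TCF7L2 the medians were 31 to 39 bp, and 77% to 82.4% of its summits lay within 100 bp against 92.8% to 94.7% for β-catenin.

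The words in the windows set the low-SOX2 sites apart from the high-SOX2 sites. Searched within 100 bp of the strongest summit on both strands, a SOX word (CATTGT or CTTTGT) was present in 297 of 865 low-SOX2 windows (34.3%, 95% Wilson interval 31.2 to 37.6), in 76.1% of high-SOX2 windows (73.8 to 78.3) and in 64.9% of those in all 12 lists. Windows 5000 bp away from the low-SOX2 sites held it in 25.4%, and all SOX2 sites in 41.5%. At least 2 SOX words were found in 4.62% of low-SOX2 and 38.4% of high-SOX2 windows. The OCT-SOX word, a SOX word followed after one base by ATGC, which therefore always counts as a SOX word too, was present in 1.97% of low-SOX2 and 5.32% of high-SOX2 windows. It was present in 3.8% of those in all 12 lists and in 0.639% of all SOX2 sites. The octamer ATGCAAAT, the word of POU factors such as OCT4, was present in 5.43% of low-SOX2 and 4.3% of high-SOX2 windows. Sites in all 12 lists held it in 9.94%, and all SOX2 sites in 2.48%.

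A TCF word (CTTTGAA or CTTTGAT) was present in 23.9% of low-SOX2 windows (95% Wilson interval 21.2 to 26.9) and in 15.3% of high-SOX2 windows (13.5 to 17.3). Sites in all 12 lists held it in 18.5%, all SOX2 sites in 11.5% and windows 5000 bp away in 8.68%. The word GGTGTG, part of the site of T-box factors such as Brachyury, was present in 18.8% of low-SOX2 and 13.6% of high-SOX2 windows. Sites in all 12 lists held it in 14.8% and all SOX2 sites in 13.7%. The CDX words (TTTATTG or TTTATGG), of the caudal homeobox factors, were present in 4.39% of low-SOX2 and 7% of high-SOX2 windows, below the 7.81% of windows 5000 bp away. Sites in all 12 lists held a CDX word in 3.8%. Within 250 bp of the summit the TCF word was present in 31.6% of low-SOX2 and 28.2% of high-SOX2 sites, and the SOX word in 57.5% and 88.6%. Of the low-SOX2 windows of 100 bp to each side, 36.5% held no SOX, TCF, CDX or T-box word. GC content moved with the class, at a median of 51.7% for low-SOX2 and 44.3% for high-SOX2 windows, and its part in the word shares was not tested.

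Outside promoters the pattern of words was similar: 37.7% of 705 low-SOX2 windows and 76.2% of 1347 high-SOX2 windows held a SOX word, and 27.8% and 15.4% a TCF word. In the 2 largest families the TCF word was present in 54.8% of windows and the SOX word in 25.9%. In the 666 windows outside families the TCF word was present in 18% and the SOX word in 34.7%.

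**Figure D3:**
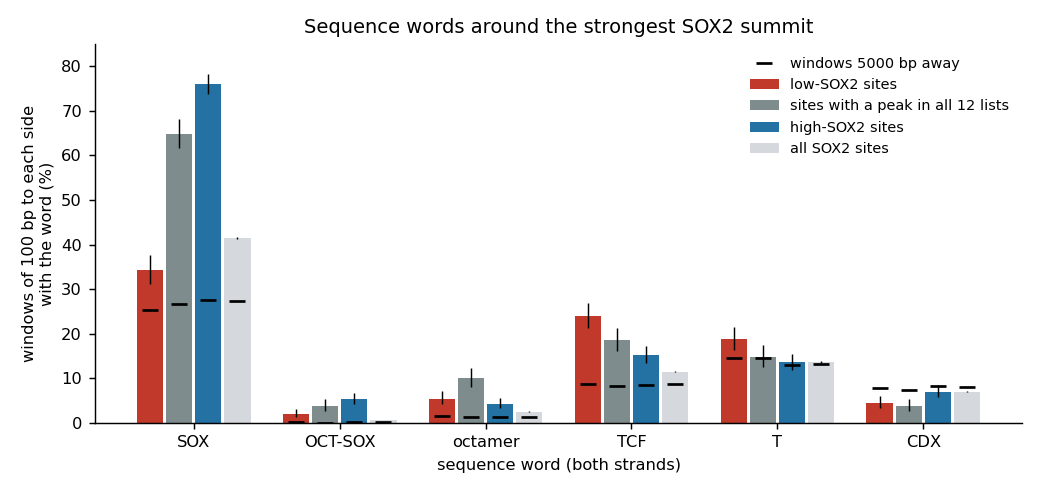
Share of windows of 100 bp to each side of the strongest SOX2 summit that hold each word on either strand (y axis, %), by class of site, with 95% Wilson intervals as bars. Black dashes mark windows 5000 bp away. The SOX word stands at 34.3% for low-SOX2 and 76.1% for high-SOX2 sites, and the TCF word at 23.9% and 15.3%.

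By position, 160 low-SOX2 summits (18.5%) lay at a promoter, from 1000 bp upstream to 100 bp downstream of a protein-coding start, against 24 of 1371 high-SOX2 summits (1.75%), 12% of the sites in all 12 lists and 6.72% of all SOX2 sites. Exons held 3.58% of low-SOX2 summits, introns 36.9%, and 41% lay between genes. The median distance to the nearest protein-coding start was 18210 bp, against 34207 bp for high-SOX2 sites. Promoter sites had a median GC content of 64.2%, and 19.4% of them held a SOX word against 29.6% of all SOX2 sites at promoters. β-catenin had a peak at 6.25% to 10% of them in the 6 low-SOX2 lists, and TCF7L2 at 12.5% to 24.4% in the low-SOX2 and 8.75% to 15% in the high-SOX2 lists.

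**Figure D4:**
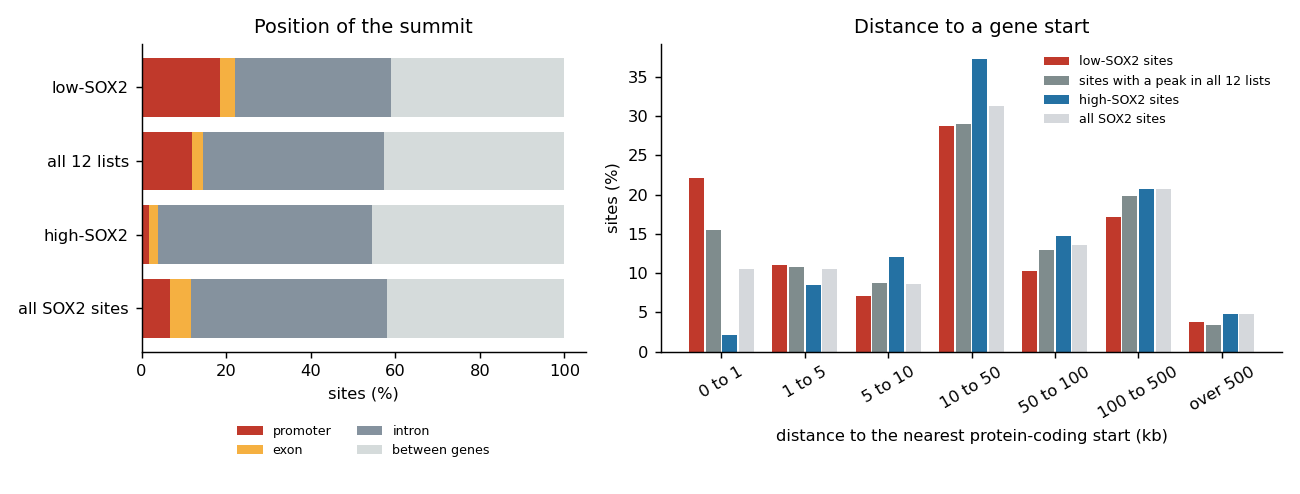
Position of the strongest summit (left, % of sites in each class) and distance to the nearest protein-coding start in kb (right, % of sites in each bin) for low-SOX2 sites, sites in all 12 lists, high-SOX2 sites and all SOX2 sites. Promoters hold 18.5% of low-SOX2 and 1.75% of high-SOX2 summits.

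SOX2 itself was not missing altogether from these sites at high SOX2. In the full lists of naive ESCs 74%, 46.7% and 40.6% of the 865 sites had a SOX2 peak, and in SOX2-ON cells 43.5%, 37.9% and 68.3%. Over all SOX2 sites the same full lists had a peak at 26.3% to 47.6%. Only 55 low-SOX2 sites (6.36%) had no peak in any of the 6 full high-SOX2 lists, and 70 (8.09%) had one in all 6. Among the ranked lists, CEpiLC replicate 3 held 99.1% of the sites and SOX2-OFF replicate 2 held 74.6%, the lowest of the low-SOX2 lists. Of the 865 sites, 127 had a peak in 6 of 6 low-SOX2 and 0 of 6 high-SOX2 lists, with a median fold of 10.5, and 202 had one in 5 and 1, with a median fold of 8.56. Just outside the rule lay 1089 sites with 4 of 6 low-SOX2 and at most 1 high-SOX2 list (median fold 7.82) and 404 sites with at least 5 low-SOX2 and 2 high-SOX2 lists (median fold 9.3). The mean β-catenin share over the 6 low-SOX2 lists was 47% for the first group, 25.2% for the second, 22.3% for the third and 28.5% for the last.

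The 865 sites were spread over many genes. They had 801 different genes as their nearest protein-coding start, 4.53% of the 17676 genes next to any SOX2 site. At 111 of the 865 sites the nearest gene also had a high-SOX2 site, which was so for 96 of the 801 genes. Of the 17676 genes next to any SOX2 site, 1219 had a high-SOX2 site. Genes differed in their number of SOX2 sites, and this overlap was not tested. The most sites next to one gene were 3, found at 7 genes, among them Pcdh18 (a protocadherin), T2 and Cxxc5, a CXXC-domain gene. Pcdh18 had 65 SOX2 sites in all, and 2 of its 3 low-SOX2 sites belonged to families of shared sequence. The 3 sites lay 14541, 268810 and 1352019 bp from its start, the second of them in an intron of Slc7a11.

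The neighbourhood of T, the mesodermal and caudal epiblast regulator Brachyury, held 4 low-SOX2 sites, 3 of them with the start of T2 as the nearest and 1 with that of T itself, upstream of T. The sequences of the T site and of 2 others at named caudal genes, chosen for print after their values were seen, follow with the same conventions.
T (chr17:8408921-8409121): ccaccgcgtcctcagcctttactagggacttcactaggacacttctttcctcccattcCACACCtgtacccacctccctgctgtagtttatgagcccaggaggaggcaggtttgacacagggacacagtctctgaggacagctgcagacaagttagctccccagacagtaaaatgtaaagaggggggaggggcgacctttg
Evx1 (chr6:52311426-52311626): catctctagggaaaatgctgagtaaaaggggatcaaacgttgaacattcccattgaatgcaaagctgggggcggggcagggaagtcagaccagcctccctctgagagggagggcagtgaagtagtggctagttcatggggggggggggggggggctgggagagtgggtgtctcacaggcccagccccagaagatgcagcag
Wnt3 (chr11:103771052-103771252): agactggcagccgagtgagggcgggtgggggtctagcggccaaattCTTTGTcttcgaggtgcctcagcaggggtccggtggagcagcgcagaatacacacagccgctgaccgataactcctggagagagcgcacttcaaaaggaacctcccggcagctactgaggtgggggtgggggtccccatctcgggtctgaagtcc

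The T site lay 25402 bp upstream of the start of T in an intron of T2, and its window held 1 T-box word and no SOX word. SOX2 had a fold of 6.04, 9.42 and 8.55 in CEpiLCs and 4.66, 11.9 and 14.3 in SOX2-OFF cells, where the peak of replicate 1 was not among the 20000 kept. In the full lists of naive ESCs and SOX2-ON cells it was 5.63 in naive replicate 1, 4.37 in SOX2-ON replicate 2 and 5.11 in SOX2-ON replicate 3, with no peak in the others. SOX2-OFF replicate 1 thus lay among the high-SOX2 values. β-catenin stood at 23.2, 19.8 and 16.6 fold in CEpiLCs and 24.4, 8.02 and 35.8 in SOX2-OFF cells, against at most 15.2 at high SOX2, so that only SOX2-OFF replicate 2 overlapped the high-SOX2 lists. The strongest T2 site, on an exon annotated there 16811 bp downstream of the T2 start, had a SOX2 fold of 21.5, 14 and 23.7 in CEpiLCs and 7.63, 4.88 and 42.2 in SOX2-OFF cells, and 18 more low-SOX2 than high-SOX2 lists of the other targets.

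Genes of the caudal epiblast list had low-SOX2 sites next to 6 of 27 genes, and 8 of their 416 SOX2 sites (1.92%) were low-SOX2 sites, where 0.691% of the sites of all genes were. High-SOX2 sites lay next to 5 of the 27 genes and made up 1.44% of the sites, against 1.09% for all genes. Evx1, a homeobox gene of the primitive streak, had 2, at 1972 bp upstream and 1298 bp downstream of its start. At the upstream one SOX2 had a fold of 7.2, 6.67 and 8.62 in CEpiLCs, and no peak, 9.31 and 13.4 in SOX2-OFF cells, and its window held none of the words. In the full high-SOX2 lists the fold was 6.53 in naive ESC replicate 1, 4.91 in SOX2-ON replicate 1 and 6.91 in SOX2-ON replicate 3, the last above CEpiLC replicate 2. β-catenin, LEF1, TCF7L1 and TCF7L2 each had a peak there in 6 of 6 low-SOX2 lists, and in 3, 4, 2 and 1 of 6 high-SOX2 lists. Fgf8, the FGF ligand of the streak and tail bud, had 2 low-SOX2 sites 9345 and 19649 bp downstream of its start. At the nearer one the SOX2 fold was 9.91, 13.4 and 19.4 in CEpiLCs and 8.53, 4.77 and 35.9 in SOX2-OFF cells, against 7.41 in naive ESC replicate 1, 8.04 in SOX2-ON replicate 3 and no peak in the other 4, so that SOX2-OFF replicate 2 lay below both high-SOX2 peaks. β-catenin had a peak there in 5 of 6 low-SOX2 and 0 of 6 high-SOX2 lists.

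Of the 39 Hox genes, 38 were next to an SOX2 site and 6 next to a low-SOX2 site, whereas none was next to a high-SOX2 site. Low-SOX2 sites made up 2.43% of their 247 SOX2 sites. The sites nearest to Hoxd1 (2638 bp upstream) and Hoxb9 (591 bp downstream, in an intron) had 15 and 8 more low-SOX2 than high-SOX2 lists of the other targets. The Hoxb9 peaks lay mostly in CEpiLCs: β-catenin had one in 3 CEpiLC and 0 SOX2-OFF lists, LEF1 in 3 and 1, TCF7L1 in 2 and 0, and TCF7L2 in 2 and 0. SOX2 fold there was 15.1, 11.7 and 10.3 in CEpiLCs and 5.53, 8.51 and 6.94 in SOX2-OFF cells. Naive ESC replicate 1, at 12.7, lay above all of these but CEpiLC replicate 1, and 5 of 6 full high-SOX2 lists had a peak.

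Primitive streak and mesoderm genes had low-SOX2 sites next to 9 of 33 genes and at 2.4% of 459 SOX2 sites, and high-SOX2 sites next to 3 (0.654%). Besides Evx1 and T, Tbx3, a T-box gene also known from the pluripotency network, had 2, both over 100000 bp from its start. One held a TCF word and had a β-catenin peak in 6 of 6 low-SOX2 and 3 of 6 high-SOX2 lists. The other held an OCT-SOX word and an octamer, had a median SOX2 fold of 22.8 and no peak of any other target in the 48 equal-length lists. In the Notch and segmentation clock list 5 of 28 genes and 1.95% of 307 sites were concerned (1 gene and 0.651% for high-SOX2 sites), with 2 sites next to the Notch target Hes1, 1 at the promoter of the ligand Dll3 and 1 in the coactivator Maml3. At the Hes1 site 90801 bp downstream the SOX2 fold was 5, 4.26 and 10.2 in CEpiLCs and 16.9, 22.6 and 48.1 in SOX2-OFF cells. The peak of CEpiLC replicate 2 was not among those kept. There was no overlap between the 2 states, a comparison of values that the rule used. In the full high-SOX2 lists the fold was 3.05 in naive ESC replicate 1 and 6.56 in SOX2-ON replicate 3, with no peak in the others. The SOX2-ON value lay above CEpiLC replicates 1 and 2.

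WNT pathway genes had low-SOX2 sites next to 10 of 60 genes, at 1.31% of 917 sites, and high-SOX2 sites next to 14 (1.85%). Tnfrsf19, a WNT-responsive receptor gene, had 2 neighbouring low-SOX2 sites 10191 and 10878 bp upstream, whose β-catenin fold was the same in each CEpiLC list, at 40.9, 70.3 and 49.7. A single β-catenin peak across both sites would give equal folds and be counted at each, which was not checked. In SOX2-ON cells β-catenin had a peak there in 2 and 3 of 3 equal-length lists. Its fold in SOX2-ON replicate 3 was 35.1 at both, above the 15.3 and 10.8 of SOX2-OFF replicate 2. Tnfrsf19 also had 3 high-SOX2 sites among its 41 SOX2 sites. Fzd10, a WNT receptor gene, had 2, and Wnt3, the ligand that starts the streak, had 1 at 2998 bp upstream with 1 SOX word. The Wnt3 site had a SOX2 fold of 4.86, 9.07 and 12.9 in CEpiLCs and 10.7, 12.6 and 22.5 in SOX2-OFF cells, against 6.46, 4.29 and 6.96 in naive ESCs and 6, no peak and 6.99 in SOX2-ON cells. CEpiLC replicate 1 lay among the high-SOX2 values. In the FGF and ERK list 7 of 31 genes and 1.41% of 566 sites were concerned (7 genes and 1.59% for high-SOX2 sites), among them the inhibitors Spred2 and Spry2 with 1 site each.

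In the Nodal and BMP list 6 of 39 genes and 1.39% of 575 sites were concerned (5 genes and 0.87% for high-SOX2 sites). At the intronic site of Nodal, the ligand gene, SOX2 had no peak in CEpiLC replicate 1 and folds of 6.37 and 8.59 in replicates 2 and 3, and 10.4, 17.3 and 20.9 in SOX2-OFF cells. There the SOX2-OFF values lay above the CEpiLC values, a comparison of values that the rule used. Id1, a BMP target, had 1.

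The adhesion and EMT list had low-SOX2 sites next to 6 of 29 genes and at 1.03% of 778 sites (the same counts as for high-SOX2 sites), with Pcdh7 and the fibronectin gene Fn1 beside Pcdh18, and the list of Meis, Pbx and TALE cofactors next to 2 of 11 (0.671% of 298 sites, 0.336% for high-SOX2 sites), Pknox1 and Pknox2. Pluripotency genes were next to low-SOX2 sites in 4 of 39 cases (0.688% of 727 sites), Tbx3, Fbxo15 and the STAT3 inhibitor Socs3 among them, and next to high-SOX2 sites in 13 (1.93% of sites). Neural and preneural genes had low-SOX2 sites next to 4 of 54 genes (0.337% of 1186 sites), Msx1, Pax7 and Irx1 among them. High-SOX2 sites lay next to 11 of them and made up 1.1% of the sites, close to the 1.09% for all genes. No low-SOX2 site lay next to a gene of the Sox family (0 of 476 sites, against 6 high-SOX2 sites, 1.26%) or of the retinoic acid pathway (0 of 202 sites, against 3 high-SOX2 sites, 1.49%). Nor did one lie next to the fibroblast list, used for feeder cells (0 of 129 sites, and 0 high-SOX2 sites). Low-SOX2 sites made up 0.691% of the sites of all genes, so lists of this size would hold few. Counting sites by gene body and 10 kb upstream instead gave the retinoic acid list 1 low-SOX2 site (0.82%). The lists held 0 to 12 low-SOX2 sites each, and no test was made.

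**Figure D5:**
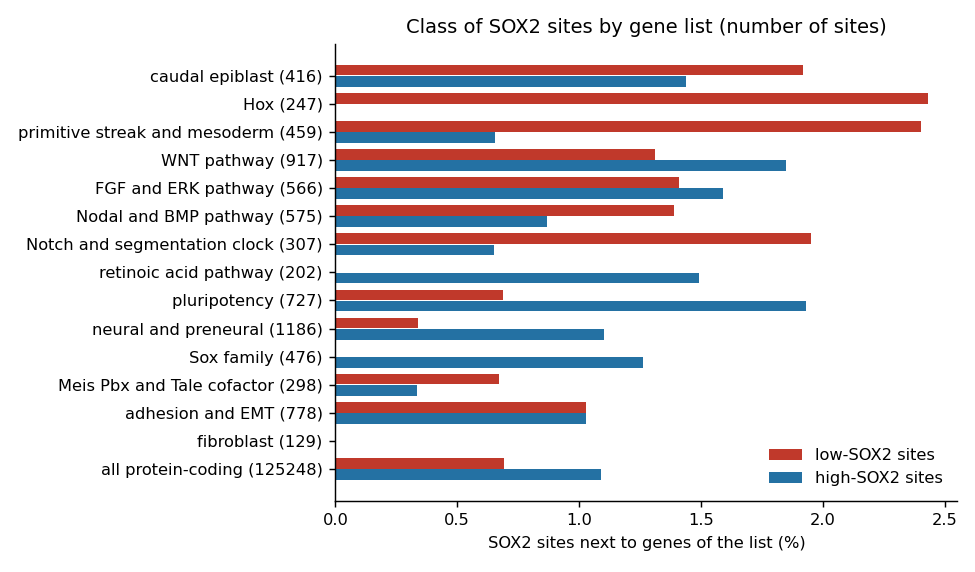
Share of the SOX2 sites next to the genes of each list (x axis, %, number of sites in brackets) that are low-SOX2 sites (red) or high-SOX2 sites (blue). Hox genes stand at 2.43% and 0%, pluripotency genes at 0.688% and 1.93%, and all protein-coding genes at 0.691% and 1.09%.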

How the data were processed

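ChIP-seq was performed by the authors on 64 samples, of which 4 were inputs and 60 gave a peak list. Per the study's methods, reads (single-end, 76 bp) were aligned to mm10 with BWA and peaks were called for each library with MACS2 against input, without pooling replicates. The deposited lists give each peak's score, fold enrichment (a ratio), −log10 p-value, −log10 q-value and summit. The sources used here do not give read depth. Peaks were ranked by deposited fold (SOX2) or −log10 p (other targets).

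Sites were made as described in the report, and a target was counted at a site where its shortened list had a peak sharing at least 1 bp. The SOX2-level labels were permuted within cell line (400 assignments, two-sided), and p-values were adjusted by the Benjamini-Hochberg method over 4 targets (over 12 for pairs). Log2 odds had 0.5 added to each count. Calls used a threshold of 0.05. Gene models were GENCODE M21 basic, whose chromosomes and lengths fit the peak lists (0 peaks past a chromosome end), and sequences were read from the RefSeq GRCm38 genome. Python 3.11.15 with numpy 2.4.6, scipy 1.17.1, pandas 2.3.3 and pysam 0.24.0 was used, and the member rule and tests were tested on simulated lists.

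The sites, gene lists and words were chosen with earlier results of these data known. Named sites were the 8 with the highest median SOX2 fold among those in 6 of 6 and 0 of 6 lists, the 8 with the largest excess of low-SOX2 lists of the other targets, up to 3 genes per list with the most members, and the 3 genes with the most members overall. Alternatives covered list length, ranking, overlap, thresholds, member rules, word windows, gene links and each library left out. Leaving out sites that share sequence and leaving out promoter sites were added after the data had been seen. Some sites and genes that the naming rule selects are not reported here. Input libraries were not analysed here.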

Additional observations from a re-analysis of the deposited data

Results flagged for a closer look

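For 2 of the 4 targets, the change in the share of low-SOX2 sites with a peak differed between the wild-type and the Sox2-/- cells by a test of the difference itself. For β-catenin the change from naive ESCs (6.01% ± 1.1) to CEpiLCs (39.5% ± 0.787) exceeded that from SOX2-ON (15.5% ± 2.66) to SOX2-OFF cells (34.5% ± 6.29) by 14.5 percentage points (SD, n = 3, exact permutation test, adjusted p = 0.02). For LEF1 the change from naive ESCs (3.55% ± 2.78) to CEpiLCs (34.6% ± 0.934) exceeded that from SOX2-ON (6.82% ± 0.347) to SOX2-OFF cells (20.7% ± 3.92) by 17.2 points (SD, n = 3, exact permutation test, adjusted p = 0.02). The adjusted p of both was 0.375 with all deposited peaks, and that of β-catenin was 0.07 with at most 20000 peaks a list and 0.05 without CEpiLC replicate 1 or 3 (exact permutation tests). The wild-type contrast also differs in medium, and this and the cell line cannot be told apart.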

How the results depend on the processing

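The number of low-SOX2 sites was 127 with peaks required in 6 of 6 low-SOX2 and 0 of 6 high-SOX2 lists, and 173 with a peak allowed in at most 1 of 6 full high-SOX2 lists, against 865. With 1 library left out it ranged from 938 to 1507, with 1507 without SOX2-OFF replicate 1 and 1456 without SOX2-OFF replicate 2. The rule then asked for all but 1 of the low-SOX2 lists left and at most 1 high-SOX2 list. Dropping a list made this rule easier to meet, so higher numbers follow in part from the rule. The differences in share by SOX2 level kept their direction in all 22 alternatives of each target. With all deposited peaks β-catenin differed by 11.7 points, LEF1 by 9.58, TCF7L1 by 6.82 and TCF7L2 by 19 and missed the threshold, as did TCF7L1 with at most 20000 peaks a list (12.2 points); the cause was not tested. The differences in log2 odds passed in all 22 alternatives of each target, with values from 1.14 (TCF7L2 without sites that share sequence) to 3.57. The cell line difference missed the threshold with all deposited peaks for β-catenin (20.7 points) and LEF1 (16.5), and with at most 20000 peaks for β-catenin (24.9). For TCF7L1, where it did not pass, it turned to -26.5 and -8.36 points under those settings, and for TCF7L2 it passed with lists ranked by fold (9.17 points). With 1 library left out it ranged from 10.9 to 16.8 points for β-catenin, missing the threshold without CEpiLC replicate 1 or 3, and from 6.53 to 8.55 for TCF7L2, passing without SOX2-ON replicate 2. Between single states, the TCF7L1 difference between CEpiLCs and naive ESCs was -6.44 points with all deposited peaks, and that between CEpiLCs and SOX2-OFF cells, 0.0771 points, was -14.6 with all deposited peaks, -12.5 with at most 20000, -1.85 with a −log10 q of at least 5, -1.19 with 10% of the site covered and -0.0473 without promoter sites. Counts of called sites moved by over 1.5 times with all deposited peaks, to 45 of 865 with β-catenin, 24 with LEF1 and 18 with TCF7L1, and for TCF7L1 to 28 with at most 20000 peaks.

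Replicate numbers paired libraries weakly: 2 of 24 pairs with the same number had deviations correlated above 0.1 (-0.0188 to 0.141), against 0 of 48 other pairs, so the numbers were not taken as pairs. Between SOX2-OFF and SOX2-ON cells every same-number pair was positive, from 0.0186 to 0.141, while other pairs ran from -0.105 to 0.0325. Between CEpiLCs and naive ESCs same-number pairs ran from -0.0188 to 0.0401. With the replicate block, the differences were 26.2, 22.5, 17.2 and 13.1 points (exact permutation test, adjusted p = 0.0312, the smallest it allows), and it changed none of the 8 calls on shares and log2 odds. The cell line difference was not run with the block. The lists hold peaks and no reads, so an absent peak is not an absent protein.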

Other observations

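Another low-SOX2 site lay within 50000 bp of 93 of the 865 sites (10.8%), against 11.7% of high-SOX2 sites and 11.9% of sites with a SOX2 peak in all 12 lists. Their windows overlapped soft-masked repeats over 50% or more of their length in 16.5% of cases, against 13.6% and 12.9%, and in 27.8% of the sites called for β-catenin against 8.94% of the sites with no β-catenin peak in the low-SOX2 lists.

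A family of 22 low-SOX2 sites with shared sequence on 14 chromosomes differed in its words from the 2 larger ones, with a SOX word in 18 windows and a TCF word in 5. β-catenin had a peak at these sites in a mean of 35.6% of site and low-SOX2 list combinations, LEF1 in 12.9%, TCF7L1 in 5.3% and TCF7L2 in 2.27%, and one of them had Wls, which encodes the carrier of WNT ligands, as its nearest gene. A family of 7 sites had no peak of any of the 4 other targets. The largest family of high-SOX2 sites had 96 sites, of which 43 held an OCT-SOX word. These families were noticed in the data and were not tested.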
